A study of Homo sapiens with 54 samples.

Results

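Among the 27978 genes counted in MDA-MB-231 cells, 9 belong to the group described here, namely 5 genes of IGF binding proteins (IGFBP1, IGFBP3, IGFBP4, IGFBP6 and IGFBP7), 2 of the receptors for IGF1 and insulin (IGF1R and INSR) and 2 of insulin receptor substrates (IRS1 and IRS2). They were taken by name from the count table, and they were chosen because their levels in treated cells were known to differ from those in untreated cells. The ratios to untreated cells, and the differences between treatments, which are differences between those ratios, are therefore given as a description. Whether a member was called by edgeR, a test over all genes, is given to be read beside the share of all genes called, with no p-value for a member and as support for nothing. All 9 had enough counts for a test in every comparison, with between 72 and 74628 reads in a library.

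IGF1 and IGF2 are secreted growth factors that bind the receptor tyrosine kinase encoded by IGF1R, and insulin binds the closely related receptor encoded by INSR. IGF binding proteins hold IGFs outside the cell, and depending on the protein and its cleavage by proteases they withhold IGFs from the receptor or release them to it. IGFBP7 binds IGFs weakly and acts in part through other partners. The activated receptors phosphorylate the docking proteins IRS1 and IRS2, which recruit PI3 kinase and so activate AKT. AKT keeps FOXO transcription factors out of the nucleus, and IGFBP1, IRS2 and INSR are textbook genes that FOXO factors switch on when insulin or IGF signalling is low. In breast cancer cells IGF1R and the IRS proteins are best known for growth and survival signals, and IGFBP3 and IGFBP4 for limiting them.

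MDA-MB-231 is an established cell line derived from a breast tumour. RNA was sequenced from 54 libraries in 18 groups of 3, which the design text calls biological replicates. The labels do not say whether the 3 came from separate cultures, so a p-value may measure only the spread between technical repeats. CKI (Compound Kushen Injection, a mixture of natural compounds from herbs) was given at 2 mg/ml and the other mixtures at the equivalent of that dose, for 24 or 48 h. OmtOspc held only oxymatrine and oxysophocarpine, MacOmtOspc held macrozamin as well, N-OmtOspc was CKI without oxymatrine and oxysophocarpine, and N-MacOmtOspc was CKI without all 3 compounds. These 4 mixtures, CKI and untreated cells were sampled at 24 h and at 48 h in what the labels call batch 1. Batch 2 held 48 h libraries of untreated cells, of CKI and of CKI without a single compound, which was macrozamin in N-Mac, n-methylcytisine in N-Nme, oxymatrine in N-Omt and trifolirhizin in N-Tri. The labels call the control cells untreated, and whether they received a vehicle is not given there. In bulk RNA, fewer cells of a type and less RNA per cell cannot be told apart.

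Libraries held between 17673537 and 26138924 counted reads, with a median of 22568666.5. Markers of the line were high (VIM 489 to 1565, CD44 328 to 669 and EGFR 66.8 to 480 reads in each 1000000, CPM, after TMM scaling), and the hormone receptor genes ESR1 and PGR had at most 8 and 2 reads in a library. Among markers of other cells, PTPRC and ALB had at most 10 and 4 reads. COL1A1 (8.87 to 65.2 CPM), COL1A2 (0.663 to 44.6), PECAM1 (0.0815 to 5.57) and COL3A1 (0 to 4.86) had low or moderate levels. Summed over these 6 markers, libraries lay between 47.8 and 54.0 CPM in untreated cells and between 23.2 and 39.2 CPM with CKI at 24 h, between 59.2 and 62.3 against 31.5 and 33.4 CPM at 48 h in batch 1, and between 27.4 and 35.1 against 27.0 and 28.6 CPM in batch 2. With N-OmtOspc they lay between 50.6 and 87.9 CPM at 24 h and between 70.2 and 76.2 CPM at 48 h, and with the other mixtures between 11.7 and 50.7 CPM. At 24 h the mean of COL1A2 was 30.3 CPM in untreated cells and 8.08 CPM with CKI, that of PECAM1 1.29 and 3.24 CPM, that of COL3A1 0.158 and 1.01 CPM, and that of VIM 1505 and 552 CPM. The summed level with CKI lay below the untreated one in batch 1 and overlapped it in batch 2, and the part of these markers in the results was not tested. At 24 h, 3 libraries stand apart, CKI replicate 1, OmtOspc replicate 2 and N-MacOmtOspc replicate 2, which are those whose names carry no number after the treatment. Over 1106 genes that differed more than 2-fold between untreated cells of the batches, their departures from the other libraries of their group followed the batch difference with slopes of 0.624, 0.574 and 0.557, against -0.384 to 0.0859 in the other 33 libraries of batch 1. Some results at 24 h are therefore also given without these 3. Leaving them out ended 4 and added 12 of the calls on members among 117 values.

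The promoters of 7 of the 9 genes were found in RefSeq (GRCh38.p14), each as a window of 300 bases that runs from upstream of the start of the gene to just past it, and they were searched on both strands for short motifs of factors tied to this pathway or to stress and xenobiotic responses. The insulin response core TGTTTTG was found in the IRS2 window and in 4.92% of the 35116 promoters, and the FOXO motif TGTTTAC in the IGFBP6 window and in 3.42% of them. The core letters of the dioxin receptor (AHR) motif, GCGTG, were present in the windows of IGFBP3 (3 times), IGF1R (4 times) and IRS1 (1 time) and in 36.5% of all promoters. The E-box CACGTG was present in that of IRS1, downstream of the start (7.26% of all), and the ATF4 motif TGATGCAA (0.866%) and the CREB motif TGACGTCA (1.85%) in none of the 7. A match describes letters, and no binding was measured. The IRS2 window is shown because IRS2 is the member with the largest rise, and that of IGFBP6 because it holds the FOXO letters. That of IGFBP3 is shown as 1 example of a window with the AHR letters, which IGF1R holds more often. The windows are chr13:109786534-109786833 on the minus strand, chr12:53097417-53097716 on the plus strand and chr7:45921223-45921522 on the minus strand, written 5′ to 3′ with the matches in capitals.
IRS2: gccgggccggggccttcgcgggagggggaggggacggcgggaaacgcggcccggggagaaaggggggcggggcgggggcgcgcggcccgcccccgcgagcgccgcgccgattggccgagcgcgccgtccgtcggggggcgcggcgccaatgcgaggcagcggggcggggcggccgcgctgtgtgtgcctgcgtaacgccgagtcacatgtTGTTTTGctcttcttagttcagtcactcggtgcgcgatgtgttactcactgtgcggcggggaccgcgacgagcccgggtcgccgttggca
IGFBP6: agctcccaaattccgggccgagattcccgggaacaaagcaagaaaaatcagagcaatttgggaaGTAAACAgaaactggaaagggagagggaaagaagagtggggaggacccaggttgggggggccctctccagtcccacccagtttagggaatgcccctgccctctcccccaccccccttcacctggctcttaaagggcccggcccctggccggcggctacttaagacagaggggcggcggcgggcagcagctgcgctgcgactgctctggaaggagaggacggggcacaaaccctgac
IGFBP3: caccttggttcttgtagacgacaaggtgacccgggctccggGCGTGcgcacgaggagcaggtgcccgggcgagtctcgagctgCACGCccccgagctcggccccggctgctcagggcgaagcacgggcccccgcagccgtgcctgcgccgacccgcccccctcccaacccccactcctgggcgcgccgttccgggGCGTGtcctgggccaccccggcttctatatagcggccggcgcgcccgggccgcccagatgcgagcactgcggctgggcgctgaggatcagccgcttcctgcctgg
In the IRS2 window the capitals start 40 bases before the start of the gene. In the IGFBP6 window they start 186 bases before it, and the motif lies on the other strand, so that it appears as its reverse complement. In the IGFBP3 window the matches start 209, 167 and 55 bases before it, the middle one on the other strand.

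In untreated cells the 9 genes covered a wide range of levels. Per kilobase of exon (lengths from GENCODE v29), the median over the 9 untreated libraries was 1278 CPM for IGFBP4, 367 for IGFBP7, 53.3 for IGFBP6, 24.6 for IGFBP3 and 16.9 for IGFBP1. It was 17.5 for IRS1 and 8.26 for IRS2, and 3.32 for INSR and 1.90 for IGF1R. The ranges over the untreated libraries overlapped for the neighbours IGFBP6 (42.1 to 60.1) and IGFBP3 (22.2 to 45.6), and for IGFBP3, IRS1 (12.9 to 22.7) and IGFBP1 (14.7 to 37.8), so that their order is not clear, and likewise for INSR (2.59 to 4.60) and IGF1R (1.54 to 3.06). IGFBP7 shares its locus with IGFBP7-AS1 and POLR2B on the opposite strand and IGF1R with MIR4714. The libraries are labelled strand-specific, but the strand setting of the counting is not given in the sources used here, so reads of these overlaps may have been counted with either gene.

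**Figure D1:**
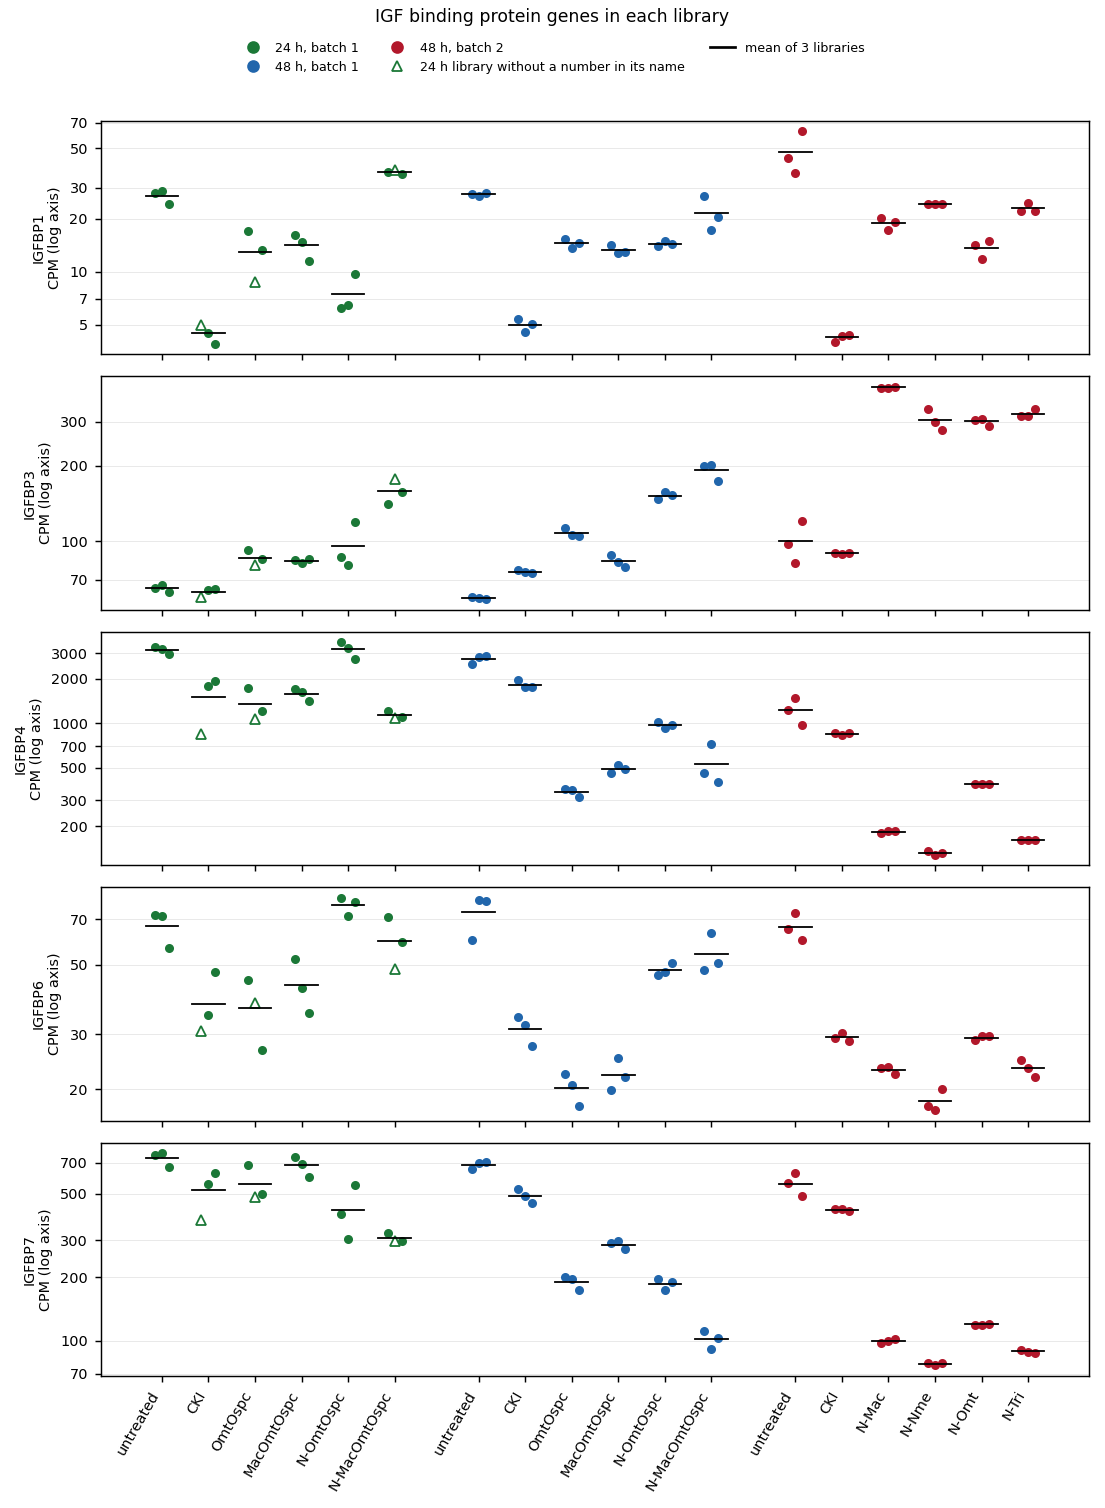
CPM on a log axis of the 5 IGF binding protein genes in each of the 54 libraries, by treatment, with colours for the time point and batch, open triangles for the 3 libraries at 24 h that stand apart and black bars for the mean of 3. IGFBP1 is lowest in the 3 CKI groups, while IGFBP3 is highest and IGFBP4 and IGFBP7 are low in the 4 single-removal groups of batch 2. At 48 h untreated IGFBP3 is also higher in batch 2 than in batch 1 (mean 99.6 against 59.0 CPM). Untreated IGFBP4 (1233 against 2729 CPM) and IGFBP7 (556 against 684 CPM) are lower there.

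IGFBP1, a secreted IGF carrier that insulin represses in liver, fell with CKI more than any other member. At 24 h it was at 27.9, 28.6 and 24.4 CPM in untreated cells and at 4.99, 4.50 and 3.90 CPM with CKI. At 48 h in batch 1 it was at 27.7, 26.7 and 27.9 against 5.37, 4.55 and 5.01 CPM, and in batch 2 at 44.4, 36.4 and 62.5 against 4.01, 4.33 and 4.38 CPM. CKI libraries lay below all untreated ones each time, with all 9 CKI libraries between 3.90 and 5.37 CPM. The log2 ratio was -2.59 ± 0.22 (SE) at 24 h, -2.46 ± 0.12 at 48 h in batch 1 and -3.48 ± 0.14 in batch 2, or 6.00, 5.51 and 11.2-fold lower. With the mixtures IGFBP1 stayed above its CKI level. With OmtOspc it was at 17.0, 8.78 and 13.2 CPM at 24 h, the second of these being a library that stands apart, and at 15.3, 13.6 and 14.5 CPM at 48 h. N-OmtOspc gave 6.18, 6.47 and 9.73 CPM at 24 h and 14.0, 15.0 and 14.3 CPM at 48 h. With N-MacOmtOspc it was not lowered at 24 h (36.7, 37.6 and 35.7 CPM, log2 ratio 0.45 ± 0.20, above all untreated libraries but not called, and called without the 3 libraries that stand apart), and at 48 h it was at 26.8, 17.1 and 20.4 CPM, the first of which lay within the untreated range.

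IGFBP3, the main IGF carrier of serum, was close to its untreated level with CKI and above it with most mixtures. It was at 64.8, 66.9 and 62.3 CPM in untreated cells at 24 h and at 59.8, 63.7 and 64.3 CPM with CKI, groups that overlapped. In batch 2 it was at 97.0, 81.8 and 120 CPM without treatment and at 89.8, 88.8 and 89.3 CPM with CKI, again with overlap, and in batch 1 at 48 h it rose from 59.5, 59.0 and 58.6 to 76.5, 74.9 and 74.5 CPM. In CPM the single-removal mixtures gave the highest levels of the series, in the batch whose untreated level at 48 h was also the higher. N-Mac libraries were at 409, 410 and 413 CPM (log2 ratio to untreated 2.06 ± 0.08), and N-Nme, N-Omt and N-Tri libraries between 278 and 338 CPM (1.59, 1.59 and 1.67). In batch 1, where untreated libraries lay between 58.6 and 66.9 CPM, N-MacOmtOspc gave 141, 178 and 157 CPM at 24 h and 199, 202 and 174 CPM at 48 h. N-OmtOspc gave 86.2, 80.0 and 119 CPM and then 147, 157 and 153 CPM. IGFBP3 was called higher in 12 of the 15 comparisons with untreated cells and lower in none, beside 10.5% to 78.2% of all genes called.

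IGFBP4, which inhibits IGF action until it is cleaved by the protease PAPPA, was the most abundant member and fell by the largest amount in CPM. In batch 2 it was at 1227, 1493 and 978 CPM in untreated cells, at 855, 829 and 855 CPM with CKI and at 180, 184 and 186 CPM with N-Mac. N-Nme took it to 135, 128 and 132 CPM (log2 ratio -3.25 ± 0.09, 9.51-fold lower) and N-Tri to 160, 162 and 162 CPM, while N-Omt left it at 389, 384 and 388 CPM. The 4 removals thus fell into separate ranges, with N-Omt above the other 3 in every library. In batch 1 the same gene separated the time points. OmtOspc libraries held 1746, 1065 and 1217 CPM at 24 h, against 3310, 3199 and 2944 in untreated cells, and 359, 350 and 316 CPM at 48 h, against 2531, 2811 and 2846, so that the log2 ratio went from -1.23 ± 0.24 to -3.01 ± 0.14. With N-OmtOspc the level at 24 h overlapped the untreated one (3549, 3251 and 2747 CPM), and at 48 h it had fallen to 1018, 935 and 966 CPM. The difference between time points was not tested for the mixtures. For CKI at 24 h the values were 839, 1780 and 1939 CPM, and the lowest is the library that stands apart. That library lay within the range of the CKI libraries of batch 2, and without the 3 libraries that stand apart the log2 ratio at 24 h was -0.76 ± 0.16 in place of -1.05 ± 0.24.

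IGFBP6, which prefers IGF2 over IGF1, fell with CKI from 60.2, 80.7 and 80.0 CPM to 34.0, 32.0 and 27.5 CPM at 48 h in batch 1 and from 65.1, 73.2 and 60.3 to 29.2, 30.2 and 28.5 CPM in batch 2. Its log2 ratio was -0.83 ± 0.21 at 24 h, -1.24 ± 0.12 and -1.17 ± 0.07. N-Omt overlapped CKI, at 28.6, 29.6 and 29.6 CPM. OmtOspc at 48 h took it lower, to 22.3, 20.6 and 17.7 CPM, and MacOmtOspc to 19.9, 25.1 and 21.8 CPM. So did N-Nme (17.7, 17.2 and 20.0 CPM), N-Mac (23.4, 23.6 and 22.4 CPM) and N-Tri (24.8, 23.3 and 21.9 CPM). The mixtures without oxymatrine and oxysophocarpine differed from this, with 82.1, 71.5 and 79.4 CPM for N-OmtOspc at 24 h and 46.3, 47.4 and 50.8 CPM at 48 h. Without TMM scaling, by library sizes alone, the small ratio for N-OmtOspc at 24 h changed from 0.24 to -0.063 and was called in neither case.

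IGFBP7, a secreted protein of the vascular and tumour matrix, was lower with CKI and, at 48 h, lower still with the mixtures. In untreated cells it was at 764, 777 and 666 CPM at 24 h, at 652, 696 and 703 CPM at 48 h and at 558, 623 and 486 CPM in batch 2. CKI gave 374, 553 and 624 CPM at 24 h, the first being the library that stands apart, 525, 487 and 450 CPM at 48 h and 421, 421 and 413 CPM in batch 2. No CKI library reached the untreated range of its own setting, yet the ratio at 24 h (-0.51 ± 0.20) was not called by edgeR, and it was -0.32 without the libraries that stand apart. DESeq2 and the fit of all 54 libraries called it, with -0.51 in both. The 4 single removals left 76.6 to 121 CPM, with log2 ratios between -2.22 for N-Omt and -2.85 for N-Nme. N-MacOmtOspc at 48 h gave 111, 91.1 and 104 CPM, a log2 ratio of -2.75 ± 0.08, and 327, 297 and 299 CPM at 24 h (-1.25 ± 0.20). At 24 h OmtOspc gave 685, 483 and 497 CPM (-0.41 ± 0.20) and MacOmtOspc 746, 692 and 602 CPM (-0.11 ± 0.20), and both overlapped the untreated range and were not called.

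**Figure D2:**
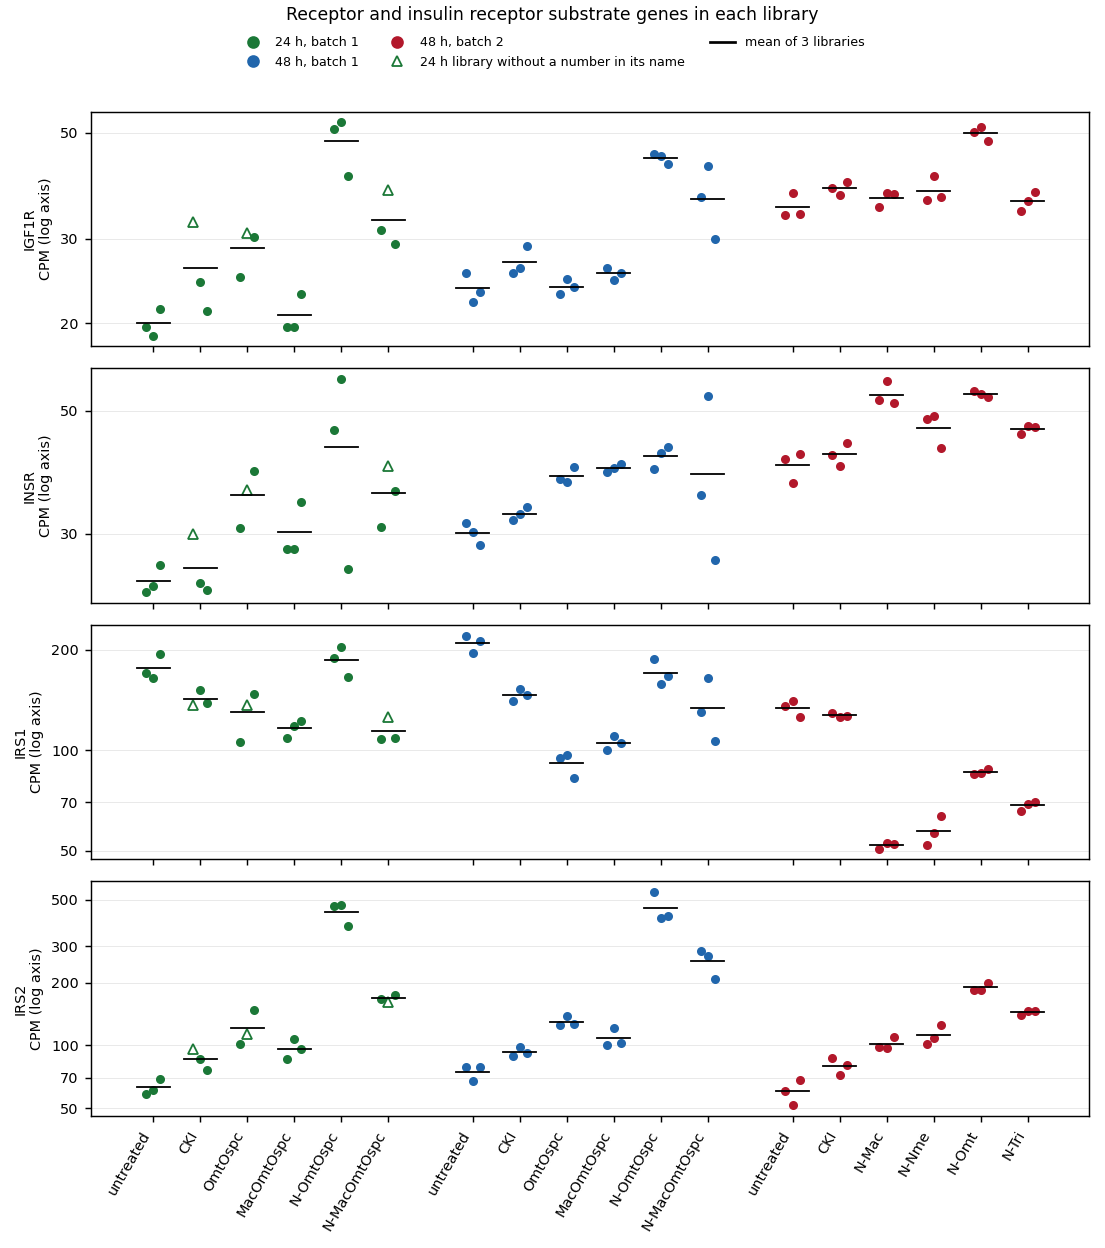
CPM on a log axis of the receptor genes IGF1R and INSR and of the substrate genes IRS1 and IRS2 in each of the 54 libraries, drawn in the same way. IRS2 stands highest in the N-OmtOspc groups, at 376 to 546 CPM, and IRS1 has its lowest group means in the single-removal groups of batch 2. At 48 h untreated IRS1 is also lower in batch 2 than in batch 1 (mean 134 against 209 CPM).

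Both receptor genes had low levels, and against untreated cells they were called higher or not called, never lower. IGF1R, the receptor that carries most IGF signals, was at 19.6, 18.8 and 21.4 CPM in untreated cells at 24 h and at 51.0, 52.5 and 40.6 CPM with N-OmtOspc, a log2 ratio of 1.29 ± 0.16. At 48 h the same mixture gave 45.1, 44.8 and 43.1 CPM against 25.5, 22.1 and 23.3 CPM (0.91 ± 0.10). N-Omt was the only single removal in which IGF1R was called, at 50.1, 51.4 and 48.0 CPM against 33.7, 37.4 and 33.8 CPM. CKI left it at 25.5, 26.0 and 29.0 CPM in batch 1 at 48 h and 38.3, 37.0 and 39.5 CPM in batch 2, ranges that touched or overlapped the untreated ones. In batch 2 the CKI ratio of 0.13 ± 0.06 was called, but leaving out untreated replicate 1 or 3 or CKI replicate 1 or 3 ended that call (0.10 to 0.13), and so did DESeq2 (0.13), a looser filter on genes (0.13) and the fit of all 54 libraries (0.13). By library sizes alone IGF1R was also called with CKI at 48 h in batch 1 (0.27) and with N-Mac (0.15) and N-Nme (0.17).

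INSR, the insulin receptor, had the narrowest spread of ratios, from 0.066 to 0.83. CKI libraries were at 30.0, 24.5 and 23.7 CPM against 23.5, 24.1 and 26.3 CPM untreated at 24 h, and in batch 2 at 41.6, 39.8 and 43.7 against 41.0, 37.1 and 41.8 CPM. These overlapped, and INSR was called with CKI in none of the 3 settings, except in batch 2 by library sizes alone (0.16). Its libraries differed most among themselves with N-OmtOspc at 24 h, where they held 46.1, 57.0 and 25.9 CPM, and with N-MacOmtOspc at 48 h, where they held 35.2, 53.2 and 26.9 CPM. The second of these groups was called higher than untreated cells (0.34), but not without its replicate 2 (0.036), and the INSR calls for OmtOspc (0.33) and MacOmtOspc (0.38) at 48 h were lost when most single libraries were left out (0.30 to 0.36 and 0.34 to 0.38). In N-Mac and N-Omt it was at 52.3, 56.5 and 51.6 and at 54.3, 53.5 and 53.0 CPM, above all untreated libraries of batch 2. N-Nme (48.2, 48.9 and 42.8 CPM) and N-Tri (45.4, 46.9 and 46.6 CPM) lay above them as well.

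In 12 of the 15 treated groups IRS1 was called lower and IRS2 higher than in untreated cells, beside 10.5% to 78.2% of all genes called over the 15. IRS1 was at 220, 195 and 213 CPM in untreated cells at 48 h in batch 1, at 140, 153 and 146 CPM with CKI and at 94.8, 96.8 and 82.8 CPM with OmtOspc. In batch 2 it was at 136, 140 and 126 CPM untreated and 129, 126 and 127 CPM with CKI, which overlapped, while N-Mac libraries held 50.7, 52.9 and 52.4 CPM (log2 ratio -1.35 ± 0.05) and N-Omt libraries 85.1, 85.7 and 88.2 CPM. IRS1 was called higher in none of the 15. With N-OmtOspc at 24 h it overlapped the untreated range, at 189, 204 and 166 CPM.

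IRS2 was called higher in all 15 comparisons with untreated cells, and its libraries lay above the untreated ones in each. Of all genes, 10.5% to 78.2% were called there, and the share with separate groups was not counted. At 24 h it was at 58.4, 61.3 and 69.1 CPM in untreated cells, at 96.2, 86.0 and 75.9 CPM with CKI and at 469, 475 and 376 CPM with N-OmtOspc. The rise with N-OmtOspc was 7.10-fold (log2 ratio 2.83 ± 0.15), the largest of any member at any time. At 48 h the N-OmtOspc libraries held 546, 411 and 417 CPM against 78.7, 67.2 and 78.8 CPM, or 6.11-fold more. Taking out macrozamin as well gave less, with 168, 161 and 176 CPM for N-MacOmtOspc at 24 h and 283, 269 and 210 CPM at 48 h. In batch 2 N-Omt gave the highest level, with 184, 185 and 200 CPM against 60.7, 51.5 and 68.6 CPM untreated and 87.3, 72.1 and 80.4 CPM with CKI. The CKI ratios were small, 0.45 ± 0.15, 0.31 ± 0.11 and 0.41 ± 0.08. Without the 3 libraries that stand apart the CKI ratio at 24 h was 0.36 ± 0.16 and no longer called, and leaving out untreated replicate 1 or 2 or CKI replicate 2 also ended that call. At 48 h in batch 1 the call was lost without untreated replicate 2 (0.24), CKI replicate 2 (0.26) or CKI replicate 3 (0.31).

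**Figure D3:**
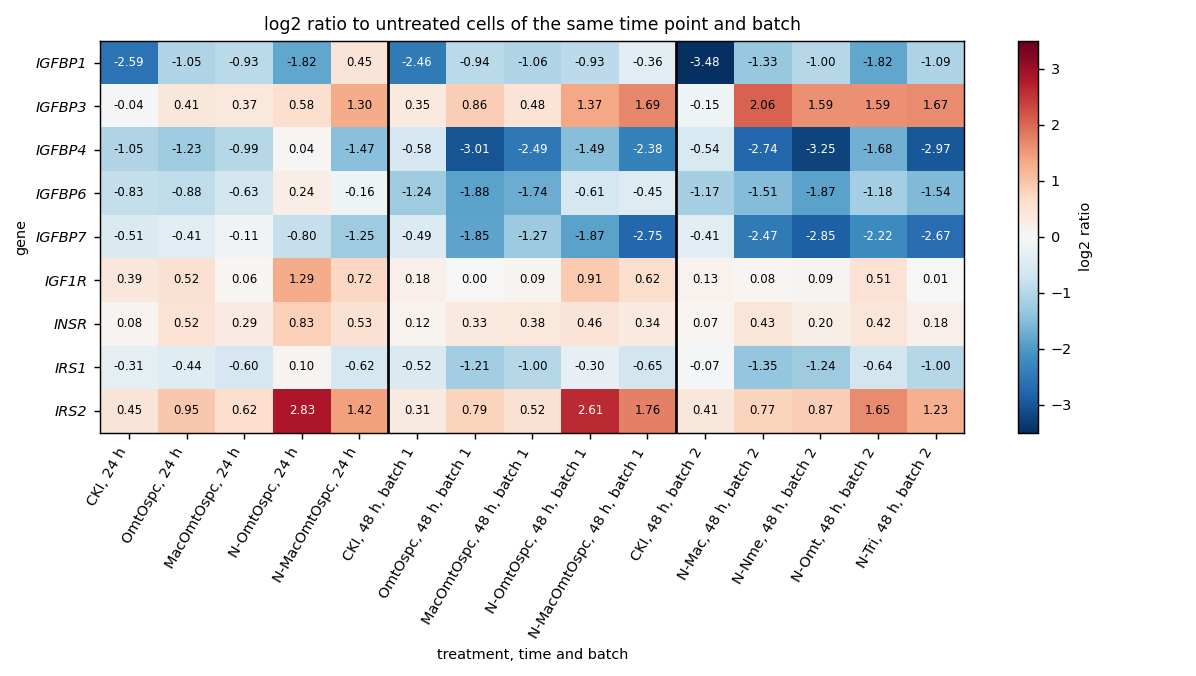
Heat map of the log2 ratio to untreated cells of the same time point and batch, with the 9 genes in rows and the 15 treatments in columns, red for higher and blue for lower, and the value printed in each cell. The row of IRS2 is red throughout and the row of IGFBP1 is blue in all columns but N-MacOmtOspc at 24 h (0.45).

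Counts of called members have to be read against the share of all genes called, since the treatments changed much of the transcriptome and the members were chosen on these ratios. A call was a p-value under 0.05 in edgeR's quasi-likelihood test, once adjusted by Benjamini and Hochberg's method for the number of genes. At 24 h, 4 members were called with CKI (30% of all genes tested), 7 with OmtOspc (16.7%), 4 with MacOmtOspc (10.5%), 6 with N-OmtOspc (62.1%) and 7 with N-MacOmtOspc (45%). Without the 3 libraries that stand apart the numbers, in the same order, were 3 (32.7%), 7 (22.3%), 6 (20.2%), 6 (68.5%) and 7 (54.2%). CKI then lost IRS2 (0.36), and MacOmtOspc gained IGFBP3 (0.37) and IGFBP6 (-0.63). N-MacOmtOspc lost INSR (0.44) and gained IGFBP1 (0.43). At 48 h in batch 1 the numbers were 7 with CKI (54%), 8 with OmtOspc (57.8%), 8 with MacOmtOspc (51.2%), 9 with N-OmtOspc (76.6%) and 9 with N-MacOmtOspc (71.1%). In batch 2 they were 6 with CKI (66.4%), 8 with N-Mac (72.4%), 8 with N-Nme (71.3%), 9 with N-Omt (78.2%) and 8 with N-Tri (72.2%). By direction, with all libraries, CKI gave 1 member higher (IRS2) and 3 lower at 24 h, where 15.3% of all genes were higher and 14.8% lower. It gave 2 higher and 5 lower at 48 h in batch 1, where the shares were 27% and 27%, and 2 higher and 4 lower in batch 2, where they were 32.3% and 34.2%. Over the 15 comparisons, 108 of 135 member values were called, beside the shares above, which ran from 10.5% to 78.2% of all genes. With a log2 ratio of at least 1 in size required as well, 57 were called. The share of all genes under that limit was not counted, so nothing is read from the 57.

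The comparison of each mixture with CKI asks what changed when components were taken out of CKI or given without the rest. Each such difference is one between ratios to untreated cells that were known when the members were chosen, so the differences and calls are a description and no independent evidence. IGFBP1 was higher with every mixture than with CKI, in 12 of 12 comparisons, all of them called and with no overlap of libraries. Of all genes, 8.49% to 76.3% were called in these comparisons, and the share without overlap was not counted. The differences went from 0.76 ± 0.22 on the log2 scale for N-OmtOspc at 24 h to 3.03 ± 0.22 for N-MacOmtOspc at 24 h, or from 1.70 to 8.20-fold. In batch 2 the difference was 2.16 ± 0.16 for N-Mac, 2.48 ± 0.15 for N-Nme, 1.67 ± 0.16 for N-Omt and 2.39 ± 0.15 for N-Tri. Only the smallest of the 12 lost its call with another scaling. By library sizes alone, where the median of all genes lay at -0.35 in that comparison, the IGFBP1 difference for N-OmtOspc at 24 h was 0.41 and not called, and it was 0.53 and not called without N-OmtOspc replicate 3.

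IGFBP3 was also called higher with the mixtures, in 11 of 12 comparisons, beside the same 8.49% to 76.3% of all genes. The exception was MacOmtOspc at 48 h (0.12 ± 0.07). In batch 2 the differences were 2.21 ± 0.08 for N-Mac and 1.74 to 1.82 for the other 3 removals. A pair of calls at 24 h was weak. OmtOspc (0.45 ± 0.13) and MacOmtOspc (0.41 ± 0.13) lost them for IGFBP3 without the 3 libraries that stand apart and by library sizes alone, and also when any CKI library was left out in turn, or OmtOspc replicate 1 or 3, or any MacOmtOspc library (0.35 to 0.47 over all of these). For N-OmtOspc at 24 h the IGFBP3 difference was 0.62 ± 0.13, and 0.28 and not called by library sizes alone.

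IGFBP4 and IGFBP7 went the other way at 48 h. IGFBP4 was lower than with CKI in all 8 comparisons at 48 h, from -0.91 ± 0.13 for N-OmtOspc to -2.71 ± 0.08 for N-Nme, and N-Omt differed least among the single removals (-1.14 ± 0.08). At 24 h IGFBP4 was higher with N-OmtOspc than with CKI (1.09 ± 0.24), and 0.80 ± 0.16 without the libraries that stand apart. IGFBP7 was lower than with CKI in the same 8 comparisons at 48 h, from -0.78 ± 0.08 for MacOmtOspc to -2.45 ± 0.06 for N-Nme, and at 24 h with N-MacOmtOspc (-0.75 ± 0.20). For N-OmtOspc at 24 h the IGFBP7 difference of -0.29 ± 0.20 was not called, but it was -0.48 and called without the libraries that stand apart.

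In batch 1 IGFBP6 was higher than with CKI with N-OmtOspc (1.07 ± 0.21 at 24 h and 0.63 ± 0.12 at 48 h) and N-MacOmtOspc (0.67 ± 0.21 and 0.79 ± 0.12), and lower at 48 h with OmtOspc (-0.64 ± 0.13) and MacOmtOspc (-0.50 ± 0.12), the mixtures of oxymatrine and oxysophocarpine. In batch 2 it was lower with N-Mac (-0.33 ± 0.07), N-Nme (-0.70 ± 0.07) and N-Tri (-0.37 ± 0.07), and the calls for N-Mac and N-Tri were lost when all 54 libraries were fitted together. The IGFBP6 call for N-MacOmtOspc at 24 h was lost without CKI replicate 1 (0.54), CKI replicate 2 (0.61) or N-MacOmtOspc replicate 1 (0.52). IRS1 was lower at 48 h with OmtOspc (-0.69 ± 0.11) and MacOmtOspc (-0.49 ± 0.11) and with all single removals (-0.57 ± 0.05 for N-Omt to -1.28 ± 0.05 for N-Mac), and higher with N-OmtOspc at 24 h (0.41 ± 0.13), where it was 0.049 and not called by library sizes alone. IRS2 was called higher than with CKI in 10 of 12 comparisons, beside 8.49% to 76.3% of all genes called. Its differences were 2.37 ± 0.15 and 2.30 ± 0.12 for N-OmtOspc, 5.18-fold and 4.93-fold, and 1.24 ± 0.07 for N-Omt (2.36-fold), and the 2 comparisons not called were both with MacOmtOspc (0.16 ± 0.14 and 0.21 ± 0.11). The call for OmtOspc at 24 h (0.49 ± 0.15) was lost for IRS2 when CKI replicate 2 or 3 or OmtOspc replicate 2 or 3 was left out, and by library sizes alone.

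The receptors differed from CKI in fewer comparisons. IGF1R was higher with N-OmtOspc (0.90 ± 0.16 at 24 h, 0.72 ± 0.09 at 48 h), N-MacOmtOspc at 48 h (0.43 ± 0.10) and N-Omt (0.37 ± 0.06), and INSR with N-OmtOspc at both times (0.74 ± 0.21 and 0.34 ± 0.14), N-Mac (0.37 ± 0.06), N-Omt (0.35 ± 0.06) and N-Nme (0.14 ± 0.06). The INSR call for N-Nme was lost without CKI replicate 1 or 2 or N-Nme replicate 1 or 2 and with DESeq2 (0.13), that for N-Mac in the fit of all 54 libraries (0.36), that for N-OmtOspc at 48 h without CKI replicate 1 or 2 or N-OmtOspc replicate 2 or 3, and that for N-OmtOspc at 24 h by library sizes alone (0.36). For N-MacOmtOspc at 24 h, IGF1R (0.41), IRS1 (-0.41) and IGFBP4 (-0.68) were called against CKI only without the libraries that stand apart.

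Of the 108 member values against CKI, 76 were called. At 24 h they were 3 for OmtOspc (8.49% of all genes), 2 for MacOmtOspc (11.6%), 8 for N-OmtOspc (58.7%) and 5 for N-MacOmtOspc (35.7%). Without the libraries that stand apart they were 2 (11.2%), 1 (14.9%), 9 (61.7%) and 8 (43.7%), in the same order. At 48 h in batch 1 they were 7 for OmtOspc (51.8%), 5 for MacOmtOspc (47.6%), 8 for N-OmtOspc (73.1%) and 7 for N-MacOmtOspc (67.2%). In batch 2 they were 8 for N-Mac (69.4%), 8 for N-Nme (71.5%), 8 for N-Omt (76.3%) and 7 for N-Tri (71.4%). With all libraries, these shares of members lay above the share of all genes in each comparison, by small margins in several, with groups of 9 that were chosen for moving. For MacOmtOspc at 24 h the share lay below that of all genes without the libraries that stand apart.

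**Figure D4:**
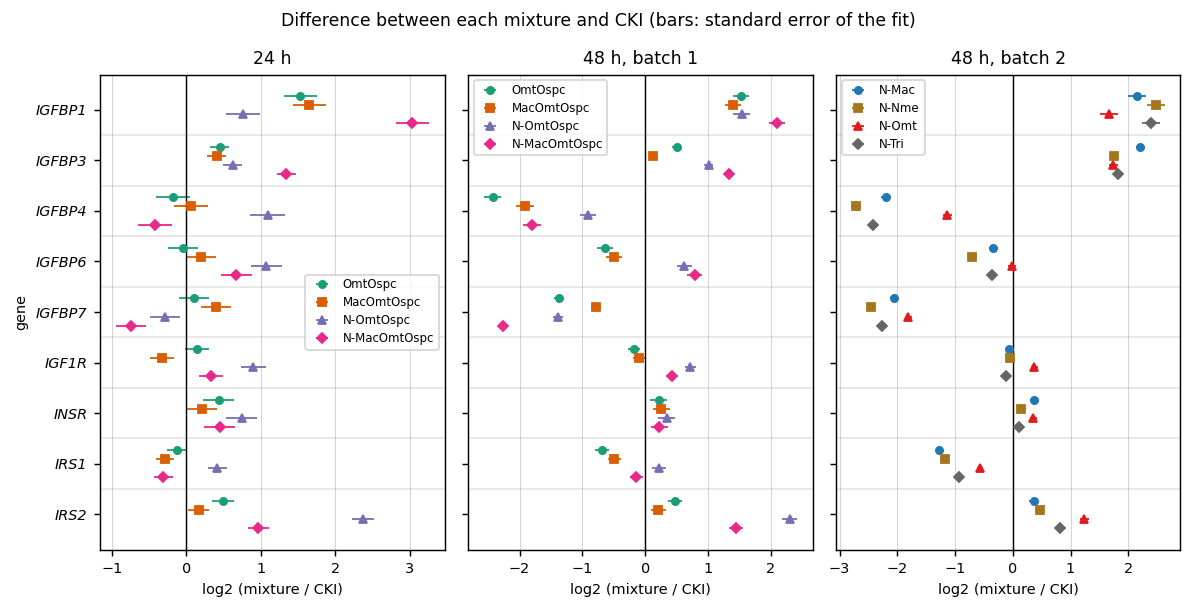
Difference between each mixture and CKI on the log2 scale (points, with bars for the standard error of the fit) for the 9 genes, in panels for 24 h and for 48 h in batches 1 and 2. All points of IGFBP1 lie to the right of 0, from 0.76 to 3.03, and those of IGFBP4 and IGFBP7 lie to the left at 48 h.

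Macrozamin was the compound that separated N-MacOmtOspc from N-OmtOspc and MacOmtOspc from OmtOspc. Taken out of N-OmtOspc at 24 h, it left IGFBP1 higher by 2.27 ± 0.22 (4.83-fold) and IGFBP3 higher by 0.72 ± 0.13, with IGFBP4 (-1.51 ± 0.24), IRS2 (-1.40 ± 0.15), IRS1 (-0.72 ± 0.13) and IGF1R (-0.57 ± 0.16) lower. These 6 members were called, beside 47.6% of all genes. At 48 h the same 6 had the same direction, each with a smaller difference (the change over time was not tested), and IGFBP7 was called as well (-0.88 ± 0.08), which made 7 members beside 51% of all genes. IGFBP1 was then higher by 0.57 ± 0.11, and IRS2 lower by 0.86 ± 0.11. The IGF1R call at 48 h was lost without N-MacOmtOspc replicate 3 (-0.16), and the IRS1 call without that library (-0.21) or N-OmtOspc replicate 1 (-0.28). By library sizes alone the median of all genes lay at 0.33 in the comparison at 24 h, and the IGF1R difference was -0.24 and not called.

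Macrozamin added to OmtOspc gave fewer calls. At 24 h none of the 9 members and 0% of the 15191 genes were called by edgeR, with 2 members and 566 genes at an unadjusted p under 0.05, and DESeq2 called none either. At 48 h 3 members were called beside 1.98% of all genes, IGFBP7 higher (0.58 ± 0.08), IGFBP3 lower (-0.38 ± 0.07) and IGFBP4 higher (0.52 ± 0.13). The call on IGFBP4 was lost whichever of the 6 libraries was left out (0.46 to 0.55) and in the fit of all 54 libraries (0.52), which also ended those on IGFBP3 (-0.38) and IGFBP7 (0.58). IGFBP1 did not pass the test at either time, with differences of 0.12 ± 0.21 and -0.13 ± 0.12. Over the 4 macrozamin comparisons, 16 of 36 member values were called.

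Untreated cells showed how the genes differ without any treatment. Between 24 and 48 h in batch 1, edgeR called none of the 9 members beside 9.03% of all genes, while 4 members had an unadjusted p under 0.05 and DESeq2 called 2. Without the 3 libraries that stand apart, of which CKI replicate 1 alone is in this fit, 5 members were called beside 27.1% of all genes. These were IGFBP4 (-0.21 ± 0.07), IGF1R (0.24 ± 0.09), INSR (0.29 ± 0.07), IRS1 (0.25 ± 0.07) and IRS2 (0.25 ± 0.08). Not all were small beside the ratios to untreated cells above. Over the 15 comparisons the median of those ratios was 0.18 for IGF1R and 0.34 for INSR. It was -1.49 for IGFBP4, -0.62 for IRS1 and 0.87 for IRS2. IRS1 was also called when untreated replicate 3 at 24 h alone was left out (0.32).

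Between batches the untreated cells at 48 h differed in 8 of the 9 members, beside 60.5% of all genes. IGFBP4 was lower in batch 2 by 1.17 ± 0.09, from 2729 ± 173 (SD, n = 3) to 1233 ± 257 CPM (SD, n = 3), and IRS1 by 0.67 ± 0.05. IGFBP1 (0.77 ± 0.12), IGFBP3 (0.73 ± 0.08), IGF1R (0.54 ± 0.07) and INSR (0.39 ± 0.06) were higher, and IGFBP7 (-0.32 ± 0.07) and IRS2 (-0.34 ± 0.09) lower, IGFBP7 losing its call in the fit of all 54 libraries (-0.30). IGFBP6 did not pass the test (-0.18 ± 0.09), and was called without untreated replicate 1 of batch 1 (-0.31) or replicate 2 of batch 2 (-0.25). Single-removal mixtures were sequenced in batch 2 only and the 4 other mixtures in batch 1 only, so differences between these kinds of mixture and the batch cannot be told apart.

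The response to CKI itself was compared between time points and between batches. Between 24 and 48 h it differed for 1 member, IGFBP3, beside 1.56% of all genes (0.41 ± 0.08), where the ratio was -0.045 at 24 h and 0.35 at 48 h. That call was lost without any 1 of 9 of the 12 libraries, which were CKI replicate 2, untreated replicate 1 and untreated replicate 2 at 24 h and all 6 at 48 h, with values of 0.38 to 0.43. Between batches at 48 h it differed for 3 members, beside 13.8% of all genes. IGFBP1 fell more in batch 2 (difference -1.01 ± 0.23), IGFBP3 went from higher in batch 1 to close to untreated in batch 2 (-0.50 ± 0.12), and IRS1 was lower with CKI in batch 1 (-0.52) and did not pass the test in batch 2 (-0.068), a difference of 0.46 ± 0.08. In the fit of all 54 libraries the differences of IGFBP3 (-0.51) and IRS1 (0.45) were not called. For all 3 the untreated level differed between the batches as well, and the CKI level of IGFBP1 was 4.98 ± 0.41 CPM in batch 1 and 4.24 ± 0.20 CPM in batch 2 (SD, n = 3 each), with every library of batch 2 below those of batch 1.

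Across the 18 groups, each centred on the mean of its time point and batch, some members followed each other. Pearson's r of log2 CPM was 0.927 for IGFBP4 and IRS1, 0.915 for IGF1R and IRS2 and -0.93 for IGFBP3 and IGFBP7, while IGFBP1 followed none of the others beyond 0.394 (IGFBP6). Over 9784 genes whose mean level reached 10 CPM, IRS2 was most like FOXO3 (r = 0.985), which encodes a FOXO factor, and then RYBP (0.976). IGFBP7 was most like SOCS3 (0.987), which encodes an inhibitor of cytokine and insulin receptors, and OLFML2A (0.976). For IGFBP1 the likest genes were NLE1 (0.929) and HSPE1 (0.914), for IGFBP3 TMEM144 (0.973) and NR3C2 (0.971), for IGFBP4 TAPBP (0.966) and BMP4 (0.957), and for IGFBP6 SPDEF (0.947) and TIMP3 (0.928). IGF1R was most like PPP1R18 (0.964) and TCF20 (0.957), INSR like BCL7A (0.934) and PPP1R3B (0.931), and IRS1 like BAHCC1 (0.963) and ADIRF (0.958). The 18 points share libraries, treatments and untreated controls, and the values only describe likeness over these groups.

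Other genes of the pathway came from 6 lists of 66 genes. None of IGF1, IGF2 and INS, the genes of the ligands, had more than 1 read in an untreated or CKI library, IGFBP2 had at most 8 reads there and IGFBP5 at most 11, and these 5 were not tested. IGF2R, the receptor that removes IGF2, was called higher with CKI at 48 h in both batches (0.44 ± 0.09 and 0.42 ± 0.06). It fell with N-Mac, N-Nme and N-Tri (-0.46 ± 0.06, -0.60 ± 0.06 and -0.66 ± 0.06). At 24 h IGF2R was at 176, 178 and 211 CPM in untreated cells and at 370, 281 and 234 CPM with CKI. It was not called there, and the highest value is the library that stands apart. Of all 66 genes, 57 were tested at 24 h, 59 at 48 h in batch 1 and 58 in batch 2, and CKI changed 15 (12 higher, 3 lower), 36 (21 and 15) and 47 (27 and 20) of them. Of all genes, 30%, 54% and 66.4% were called in these comparisons, so the count at 24 h lies below the background and the other 2 lie above it.

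Genes of proteases that cleave the binding proteins, and of their inhibitors, were counted next. STC2 and STC1, whose products inhibit PAPPA, rose by 2.06 and 1.57 on the log2 scale at 24 h, by 1.75 and 1.36 at 48 h in batch 1 and by 1.52 and 1.71 in batch 2, and ADAM12, the gene of a protease that can cleave IGFBP3, by 1.40, 1.38 and 1.22. STC1 was at 37.1, 36.4 and 40.7 CPM in untreated cells at 24 h and 135, 105 and 97.6 CPM with CKI. The other ratios rest on few reads. Untreated libraries at 24 h held 7 to 13 reads of STC2 (mean 0.474 CPM) and 27 to 38 of ADAM12 (mean 1.66 CPM). In this list of 7 genes 6, 7 and 7 were tested and 3, 4 and 6 were called in the 3 CKI comparisons (beside 30%, 54% and 66.4% of all genes), 3 higher in each, with medians of 0.74, -0.10 and 0.030 over those tested. PAPPA itself, named after its values were seen, was not called at 24 h (-0.17 ± 0.25) or in batch 1 at 48 h (-0.27 ± 0.17). In batch 2 it was called lower (-0.44 ± 0.13). HTRA1, a serine protease gene also named after its values were seen, fell by 2.42 ± 0.07 with N-MacOmtOspc at 48 h. Its mean with CKI was 96.8 against 141 CPM untreated at 24 h. At 48 h it was 101 against 137 CPM in batch 1 and 71.2 against 94.3 CPM in batch 2.

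Of 13 listed inhibitors of insulin signalling, 12, 13 and 13 were tested and 2, 7 and 8 fell with CKI (beside 14.8%, 27% and 34.2% of all genes), while 0, 0 and 1 rose (beside 15.3%, 27% and 32.3%), with medians of -0.21, -0.28 and -0.24. With N-OmtOspc 4 rose and 3 fell at 24 h, and 6 rose and 6 fell at 48 h (beside 62.1% and 76.6% of all genes called). SOCS2, which dampens growth hormone signals, fell by 1.34, 1.40 and 1.82 and SOCS1 by 1.30, 0.56 and 0.67. SOCS2 rose with N-OmtOspc (0.72 ± 0.22 at 24 h and 0.50 ± 0.10 at 48 h), where IRS2 was highest. SOCS3 fell with all 4 single removals (-1.81 to -2.25). Adaptors and kinases below the receptors had small ratios, with 3, 11 and 14 of 17 tested genes called (the first below the 30% of all genes, the others above the 54% and 66.4%) and 3, 8 and 11 of them higher, the medians being 0.41, 0.20 and 0.26. The adaptor genes CRK (0.53, 0.26 and 0.39) and GRB2 (0.41, 0.20 and 0.31) were called with the same sign each time.

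FOXO factors and their known targets were counted as well. FOXO4 rose with CKI in all 3 comparisons (1.5 ± 0.15, 1.18 ± 0.10 and 1.19 ± 0.07), while FOXO1 and FOXO3 passed the test in batch 2 (0.48 ± 0.10 and 0.28 ± 0.05) and in neither other comparison with CKI (0.59 and 0.26 at 24 h, 0.25 and 0.19 at 48 h in batch 1). With N-OmtOspc at 24 h all 3 rose, FOXO1 by 2.18 ± 0.25, FOXO3 by 1.96 ± 0.20 and FOXO4 by 1.71 ± 0.15, and with N-Omt FOXO3 rose by 1.24 ± 0.05. Of 16 target genes other than members, CKI changed 6 at 24 h (5 higher, 1 lower), 11 at 48 h in batch 1 (8 and 3) and 13 in batch 2 (8 and 5), beside 30%, 54% and 66.4% of all genes, with medians of 0.28, 0.22 and 0.21. N-OmtOspc changed 13 at 24 h (11 higher, 2 lower, median 1.11) and 13 at 48 h (11 and 2, median 0.71), beside 62.1% and 76.6% of all genes. PDK4, a kinase gene of the switch from glucose to fat oxidation, rose most, from 0.505, 1.07 and 1.06 CPM to 10.8, 8.49 and 7.47 CPM with CKI at 24 h (3.31 ± 0.30). SESN3 (1.99, 1.28 and 1.78) and BCL6 (1.23, 0.99 and 1.13) rose in all 3 comparisons. PDK4, SESN3 and BCL6 were named for their changes with CKI, so these ratios are a description. The medians of all genes tested were within 0.1 of 0 after TMM scaling in each comparison, and nothing beyond the counts is read from these lists, which were not tested as sets.

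**Figure D5:**
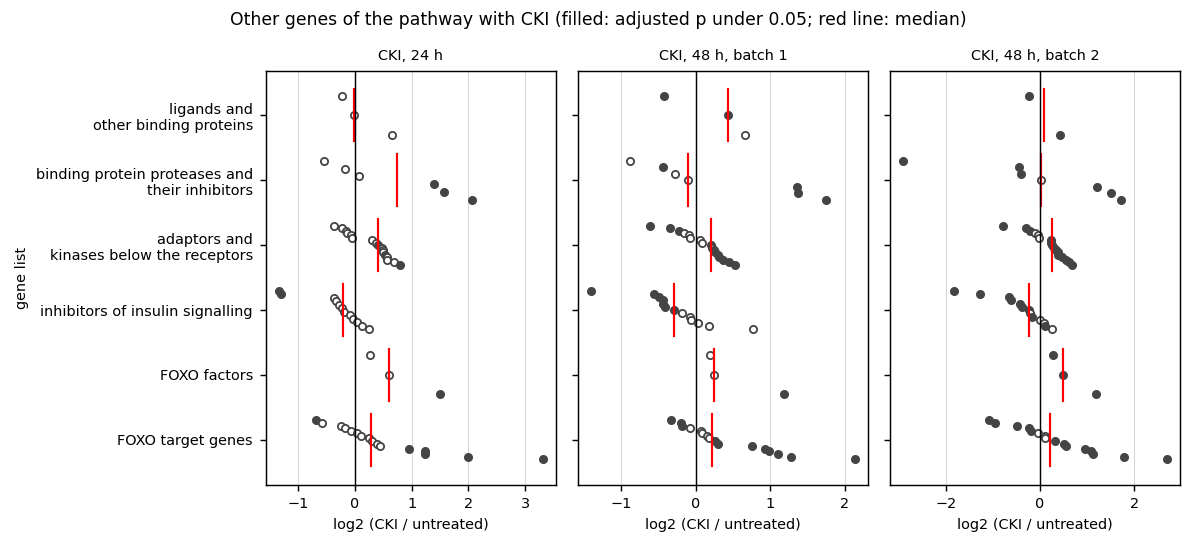
Log2 ratio of CKI to untreated cells for the other genes of the pathway that were tested, by list, at 24 h and at 48 h in batches 1 and 2, with filled points for genes called (adjusted p under 0.05) and red lines for medians. The points farthest to the right are FOXO target genes, with PDK4 at 3.31, 2.14 and 2.70.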

How the data were processed

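The authors deposited 1 table of read counts per gene for the 54 libraries, not normalized. The submitters' processing notes name FastQC 0.11.4, Trim Galore 0.3.7, STAR 2.5.3a, Subread 1.5.2 with featureCounts, edgeR 3.22.3 and the genome build hg19. RNA was selected with oligo(dT) beads and sequenced as paired reads, and per the labels only samples above a set RNA integrity were sent. Groups came from the sample labels, and the meaning of the mixtures from the design text.

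The counts were analysed with edgeR 4.0.16 in R 4.3.3 (filterByExpr, TMM, quasi-likelihood test, Benjamini-Hochberg adjustment over all genes tested). Separate fits held the 18 libraries at 24 h, the 18 of batch 1 at 48 h and the 18 of batch 2, each with 6 groups that share 1 estimate of the spread. 12 libraries of untreated and CKI cells were fitted for the contrasts between time points and between batches, with interaction contrasts for the CKI effect. In all, 35 comparisons were made. SEs are the log2 ratio over the root of the F statistic. CPM are counts in each 1000000 reads after TMM scaling over all libraries. Counting precision was set by the number of reads, at least 72 for a member.

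The 9 members, the gene lists and the tests were chosen with earlier results of these data known. Named list genes were the 3 or fewer with the largest mean change among those called with CKI in all 3 comparisons with the same sign, plus the ligands, IGF2R, IGFBP2, IGFBP5 and the FOXO factors, and genes named beyond that (PAPPA, HTRA1 and SOCS3) were chosen after their values were seen. Likest genes were the 2 with the highest correlation over 18 groups. The code was tested on simulated data. Alternatives were other scaling, filters, tests (DESeq2 1.42.0), fits, a threshold on size, a replicate block and leaving libraries out. Replicate pairs differed by more than sampling noise in all 54 pairs (chi-square per degree of freedom 1.97 to 131). Sequences came from RefSeq, and the promoters of IGFBP1 and IGFBP7 were not analysed here. Coordinates are given only for RefSeq windows, since the counts use another build.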

Additional observations from a re-analysis of the deposited data

Results flagged for a closer look

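The effect of CKI was called different between settings for 3 members, by interaction contrasts of the edgeR fit. These are differences between the ratios to untreated cells that were known when the members were chosen, so they are no independent evidence. For IGFBP3 the log2 ratio to untreated cells was higher at 48 h than at 24 h by 0.414. It was lower in batch 2 than in batch 1 by a difference of -0.495, so that of 3 settings only 48 h in batch 1 showed a rise of IGFBP3. For IGFBP1 the difference between batch 2 and batch 1 was -1.01. For IRS1 it was 0.459.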

How the results depend on the processing

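Requiring a log2 difference of at least 1 in size lowered the member values called from 108 to 57 against untreated cells, from 76 to 40 against CKI, from 16 to 3 for macrozamin, from 8 to 1 for untreated cells between batches, from 3 to 1 for the CKI effect between batches and from 1 to 0 for it between time points. That last call, of IGFBP3, also fell to 0 with genes of at least 1 count, with all 54 libraries in 1 fit and with the replicate block. The fit of all 54 libraries left 1 of the 3 calls between batches. For untreated cells between time points, 0 became 2 with DESeq2 and 5 without the 3 libraries that stand apart. The causes were not tested, and no share of all genes was counted under the limit on size. Leaving out 1 library at a time gave 102 to 112, 72 to 81, 14 to 17, 0 to 1 (untreated over time), 8 to 9, 0 to 1 (CKI over time) and 3 to 3 calls. No value of a called member changed direction under any alternative.

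No pairing of the samples by replicate number was seen. In 33 comparisons checked, none had a correlation over 0.1 between deviations of all same-numbered libraries (range -0.563 to 0.335). This cannot exclude a pairing. At 24 h the libraries that stand apart do not all carry the same number, and their departures enter these correlations. The libraries were compared as unpaired. With the replicate block 311 of 315 member values kept their direction and side of the threshold and 4 lost the call, namely INSR for N-MacOmtOspc at 24 h (0.53), IRS2 for OmtOspc against CKI at 24 h (0.49), IGFBP3 for MacOmtOspc against CKI at 24 h (0.41) and the CKI effect of IGFBP3 over time (0.41). Library sizes alone moved the median of all genes by over 0.1 in the 24 h comparisons with N-OmtOspc (-0.31 against untreated, -0.35 against CKI, 0.33 for N-MacOmtOspc against it). With 3 libraries a group, differences of over 2 SE could go uncalled, as for IGFBP7 (-0.51 ± 0.20) and IGF1R (0.39 ± 0.16) with CKI at 24 h.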
